A study of Mus musculus with 8 samples.

Results

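The genes described here are 8 genes known from natural killer (NK) cells: the receptors Klra4, Klra7, Klra8, Cd2 and Il2rb, the chemokines Xcl1 and Ccl5, and the cytotoxic granule gene Nkg7. Their probes were found by matching the accession of each non-control probe to the gene, which gave 14 of the 55681 probes on the array and 8 of 20284 named genes. The genes were picked with their values in the 4 groups already known, so their levels and differences are given as a description, without a test. Gene expression was measured on 8 one-colour Agilent arrays, with 2 arrays per group, 1 from each of 2 independent experiments. The groups were Flt3+ granulocyte progenitors (GPs) of Irf8KO mice, Flt3+ GPs of wild-type (WT) mice, Flt3- GPs of Irf8KO mice and Flt3- GPs of WT mice, all sorted from bone marrow and labelled as primary cells. Flt3 is the receptor for Flt3 ligand, and Irf8 encodes a transcription factor of the monocyte and dendritic cell lineages. The labels give no age, strain, allele or number of animals, so how far the spread between the arrays of a group holds variation between animals is not known.

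NK cells are innate lymphocytes that kill infected or transformed cells by releasing perforin and granzymes from granules. In mice, the Ly49 receptors, encoded by the Klra genes of the NK gene complex, read MHC class I or related ligands on target cells. Inhibitory Ly49 receptors signal through phosphatases such as SHP-1, whereas activating ones pair with adaptors such as DAP12. NK cells need IL-15, which signals through a receptor that contains the Il2rb chain, and several of the genes above are also used by T cells.

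The 10 listed granulocyte progenitor markers, among them Elane, Mpo and Cebpe, were well above background on every array, as were some markers of other lineages. Of the 10, 9 were called lower in Flt3+ than in Flt3- GPs of each genotype (limma adjusted p under 0.05). Of all genes, 23.6% were called lower in that comparison in Irf8KO and 39.2% in WT GPs. Cebpe had processed signals of 422 and 623 in WT Flt3+ against 23843 and 26361 in WT Flt3- GPs. Flt3 RNA followed the sort, with log2 levels of 6.29 and 6.30 in Irf8KO Flt3+ GPs against 2.71 and 2.68 in Irf8KO Flt3- GPs, and of 6.21 and 6.21 in WT Flt3+ GPs against 1.69 and 1.66 in WT Flt3- GPs. Here and below a level is the log2 processed signal minus the log2 of the 75th percentile of its array. The Irf8 probe read 6.67 and 6.67 in Irf8KO Flt3+ GPs against 5.80 and 5.87 in WT Flt3+ GPs, and 5.64 and 5.53 in Irf8KO Flt3- GPs against 4.85 and 4.88 in WT Flt3- GPs. Irf8 RNA was therefore higher on the arrays labelled Irf8KO. The sources used here do not say whether that probe lies in the deleted stretch, so it checks nothing, and each direction between genotypes below rests on the labels. The 8 arrays lay on 1 slide, with row 2 for Irf8KO and row 1 for WT, and with columns 1 to 2 for Flt3+ and 3 to 4 for Flt3-, so slide position and group cannot be told apart. In sorted bulk samples, fewer cells of a type and less RNA per cell cannot be told apart either.

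Klra4, Klra8 and Klra7 lie near each other on chromosome 6, and are members of 1 gene family. RefSeq promoter windows (GRCm38.p6, from 250 bases before to 50 bases after the start) are shown for these 3 genes, since all 3 were brightest in one Irf8KO population and at background in the other. Where a gene had several starts, the start with the most similar window is shown. The longest stretch present in all 3 windows, 14 bases long, is in capitals.
Klra4, chr6:130067222-130067521, minus strand: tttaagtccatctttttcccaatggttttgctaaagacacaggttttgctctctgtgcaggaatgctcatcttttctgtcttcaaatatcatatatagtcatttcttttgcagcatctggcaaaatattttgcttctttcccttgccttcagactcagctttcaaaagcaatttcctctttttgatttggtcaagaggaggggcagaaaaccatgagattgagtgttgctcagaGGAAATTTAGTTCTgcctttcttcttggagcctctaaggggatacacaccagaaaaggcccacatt
Klra8, chr6:130129849-130130148, minus strand: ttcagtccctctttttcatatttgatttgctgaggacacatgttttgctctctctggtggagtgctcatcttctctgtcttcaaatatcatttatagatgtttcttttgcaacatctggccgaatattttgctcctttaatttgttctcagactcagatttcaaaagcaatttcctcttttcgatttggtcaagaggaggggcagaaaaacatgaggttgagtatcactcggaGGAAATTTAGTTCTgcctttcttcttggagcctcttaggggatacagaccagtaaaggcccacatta
Klra7, chr6:130233273-130233572, minus strand: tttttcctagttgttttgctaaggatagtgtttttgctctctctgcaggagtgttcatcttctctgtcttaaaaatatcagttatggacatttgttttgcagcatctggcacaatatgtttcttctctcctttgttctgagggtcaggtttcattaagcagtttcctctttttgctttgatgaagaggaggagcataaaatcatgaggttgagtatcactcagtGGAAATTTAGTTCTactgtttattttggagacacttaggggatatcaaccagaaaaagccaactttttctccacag
By global alignment, the windows of Klra4 and Klra8 were 86.0% identical, those of Klra8 and Klra7 74.3%, and those of Klra4 and Klra7 73.7%. The table held promoters of 5 of the 8 genes, 7 windows in all; Cd2, Il2rb and Ccl5 were not in it. The IRF-type letters GAAA, then 2 bases of any kind, then GAAA, searched on both strands, were in 0 of these 7 windows and in 3.44% of 32851 windows in the table. The ETS-IRF-type letters GGAA, then 2 bases of any kind, then GAAA, searched in the same way, were in 0 of the 7 windows and in 2.72% of all windows. Both searches describe letters in these windows only.

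The 3 Ly49 receptor genes had low signals, were brightest in Irf8KO Flt3- GPs, and were not well above background on either Irf8KO Flt3+ array. Klra8 encodes Ly49H, the activating receptor for a mouse cytomegalovirus protein. Its processed signal was 2.65 and 2.96 in Irf8KO Flt3+ GPs, not well above background, against 33.8 and 41.3 in WT Flt3+ GPs. It was 72.6 and 84.9 in Irf8KO Flt3- GPs, against 28.8 and 33.6 in WT Flt3- GPs. The Irf8KO arrays thus held the lowest and the highest Klra8 signals, with the WT arrays of both populations between them. The WT populations overlapped in level after scaling to each array, though not in signal. On the log2 scale the Klra8 difference was -3.31 (SE 0.08) between Irf8KO and WT Flt3+ GPs, or at least 2.74-fold lower, and 1.66 (SE 0.08) between Irf8KO and WT Flt3- GPs. A fold against a dim group is given as "at least", with the dim group set to the lowest signal on each array that was well above background, or to the probe itself where that was higher. Such folds hold for the main setting only, and normexp background correction, described below, gave smaller differences. Between the populations, Klra8 was at least 9.25-fold lower in Irf8KO Flt3+ than in Irf8KO Flt3- GPs, and differed by -0.10 (SE 0.08) between WT Flt3+ and WT Flt3- GPs. A second Klra8 probe gave the same picture, with 2.33 and 2.60 in Irf8KO Flt3+ GPs against 38.2 and 39.3 in WT Flt3+ GPs, and 52.2 and 65.1 in Irf8KO Flt3- GPs against 29.4 and 22.7 in WT Flt3- GPs. The other Klra8 probe was dim throughout, from 2.31 to 3.38.

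Klra4 encodes Ly49D, another activating receptor. Its signal was 6.89 and 2.84 in Irf8KO Flt3+ GPs, not well above background, against 22.5 and 42.8 in WT Flt3+ GPs, and 46.1 and 59.0 in Irf8KO Flt3- GPs against 20.0 and 27.5 in WT Flt3- GPs. Again the Irf8KO Flt3- arrays were the highest and the Irf8KO Flt3+ arrays the lowest, while the WT populations overlapped. The Klra4 difference between genotypes was -2.39 (SE 0.43) in Flt3+ GPs, at least 2.27-fold lower, and 1.47 (SE 0.43) in Flt3- GPs. Klra4 was at least 6.15-fold lower in Irf8KO Flt3+ than in Irf8KO Flt3- GPs. Klra7 encodes the inhibitory receptor Ly49G. Its brighter probe read 2.77 and 10.8 in Irf8KO Flt3+ GPs, neither well above background, against 15.7 and 37.6 in WT Flt3+ GPs, of which the second was. It read 67.7 and 81.6 in Irf8KO Flt3- GPs, both well above background, against 19.3 and 24.96 in WT Flt3- GPs, of which the second was. The difference of Klra7 between genotypes was 2.08 (SE 0.63) in Flt3- GPs and -1.73 (SE 0.63) in Flt3+ GPs. Klra7 passed the filter on dim probes through Irf8KO Flt3- GPs alone. Its Flt3+ value was 0.05 with normexp background correction, described below. No fold is given for it, since 1 WT Flt3+ array was itself not well above background. The Flt3+ value rested on single arrays: it was -0.76 without the first Irf8KO Flt3+ array and -2.70 without the second. The other Klra7 probe that passed the filter was well above background in Irf8KO Flt3- GPs only, at 33.1 and 27.5, against 7.62 and 5.58 in WT Flt3- GPs. Klra7 was at least 8.42-fold lower in Irf8KO Flt3+ than in Irf8KO Flt3- GPs.

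**Figure D1:**
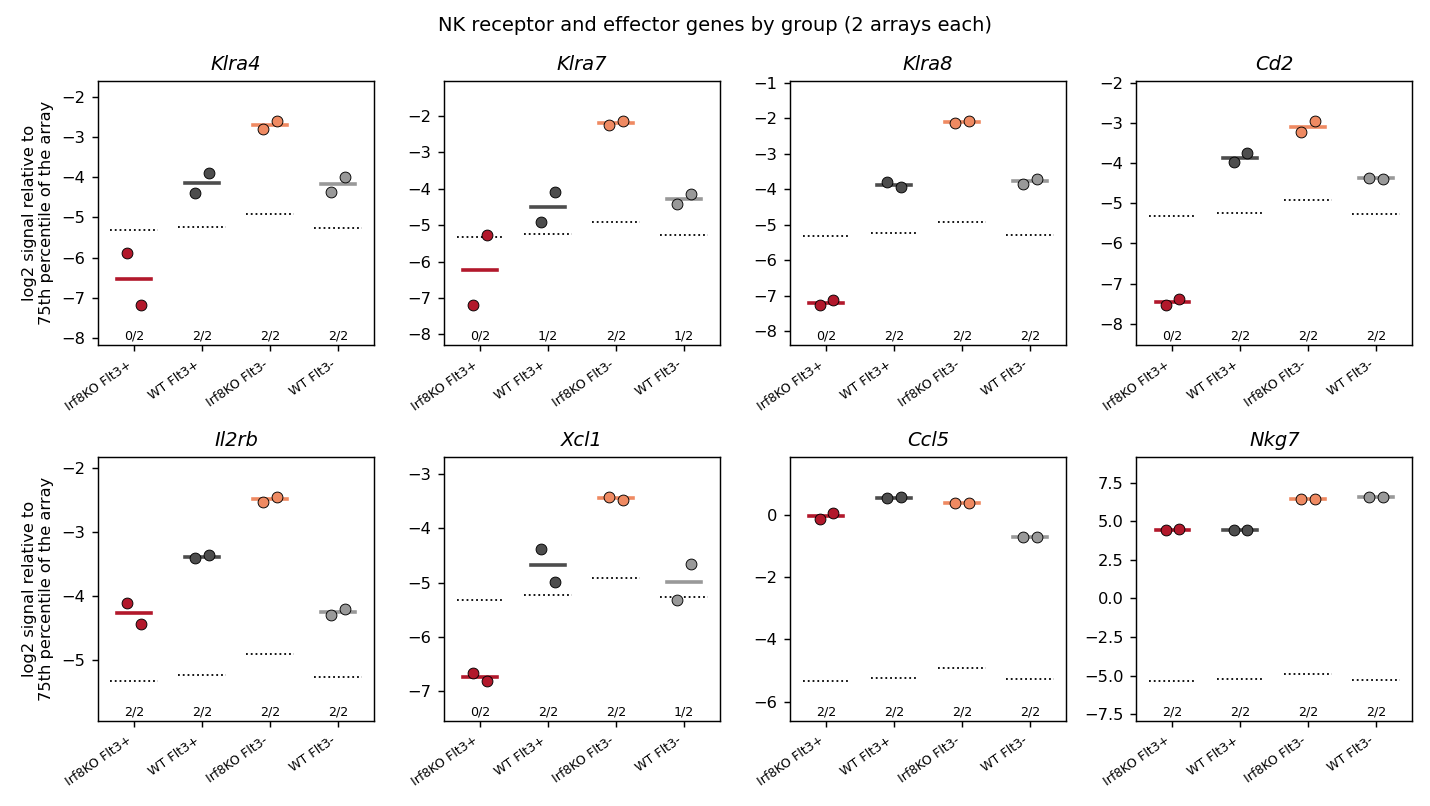
Levels of the 8 genes (log2 processed signal, scaled to the 75th percentile of its array) in Irf8KO Flt3+, WT Flt3+, Irf8KO Flt3- and WT Flt3- GPs. Points are arrays, bars are means of 2 arrays, dotted lines give the mean over the group of the lowest signal well above background on each array, and the fractions count arrays on which the probe was well above background. Klra4, Klra7, Klra8, Cd2 and Xcl1 are at 0 of 2 in Irf8KO Flt3+ GPs, and 6 of the 8 genes are highest in Irf8KO Flt3- GPs.

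The Ly49 family was represented by 19 probes of 11 Klra genes, 12 of them for other Klra genes. Of the 19 probes, 8 were well above background on no array and 2 on all arrays. These 2 were the probe of Klra1 (Ly49A, an inhibitory receptor) and the brightest probe of Klra16. Klra1 read 139 and 146 in Irf8KO Flt3+ GPs against 160 and 160 in WT Flt3+ GPs, and 148 and 134 in Irf8KO Flt3- GPs against 98.4 and 101 in WT Flt3- GPs. Klra1 was thus measurable in Irf8KO Flt3+ GPs, where no probe of Klra4, Klra7 or Klra8 was. Relative to each array, Klra1 rose by 0.82 (SE 0.16, limma adjusted p = 0.00984) in Irf8KO over WT Flt3- GPs and its difference in Flt3+ GPs was 0.26 (SE 0.16, limma adjusted p = 0.283). With normexp background correction, described below, the Klra1 rise was 0.54. Klra16 read 48.0 and 49.4 in Irf8KO Flt3+ GPs against 106.99 and 138 in WT Flt3+ GPs, and 80.4 and 98.6 in Irf8KO Flt3- GPs against 50.04 and 61.3 in WT Flt3- GPs. Klra9 (Ly49I) read 11.3 and 9.55 in Irf8KO Flt3+ GPs, not well above background, against 18.1 and 20.9 in WT Flt3+ GPs, and 14.9 and 24.6 in Irf8KO Flt3- GPs against 8.70 and 11.2, not well above background, in WT Flt3- GPs. Klra9 rose at least 2.03-fold in Irf8KO over WT Flt3- GPs (limma adjusted p = 0.00519), a difference of 1.28 that was 0.37 with normexp. Neither transcript nor probe sequences of this family were compared here, so whether a probe of one Klra gene also reads RNA of another was not tested.

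**Figure D2:**
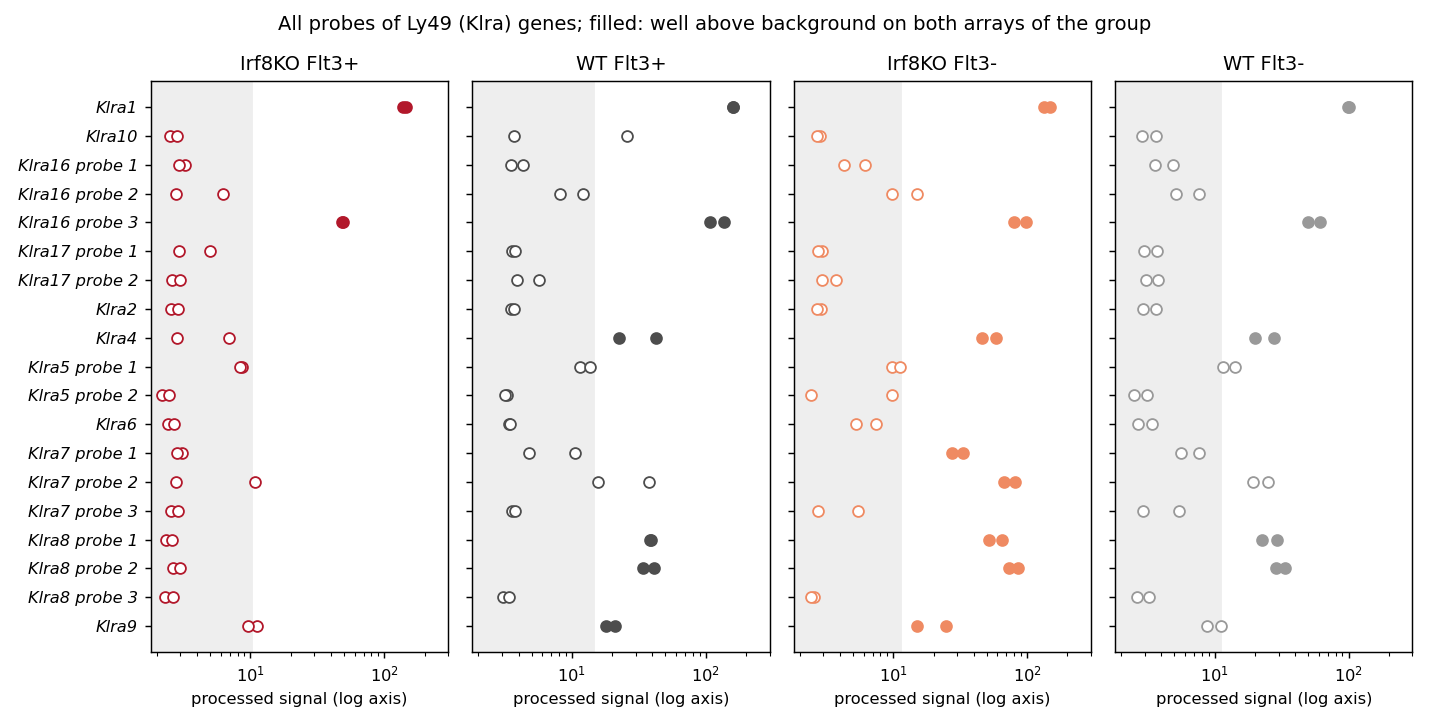
Processed signal (log axis) of all 19 probes of Klra genes in Irf8KO Flt3+, WT Flt3+, Irf8KO Flt3- and WT Flt3- GPs, 2 arrays each. Filled points mark probes well above background on both arrays of the group, and the grey band ends at the mean of the lowest signals well above background. The probes of Klra4, Klra7 and Klra8 that are filled in Irf8KO Flt3- GPs are all open in Irf8KO Flt3+ GPs, where the Klra1 probe (139 and 146) and 1 Klra16 probe (48.0 and 49.4) are filled.

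Cd2, an adhesion receptor of T and NK cells that binds CD48 in mice, had the same order of groups as Klra4. Its brighter probe read 2.19 and 2.47 in Irf8KO Flt3+ GPs, not well above background, against 30.0 and 46.9 in WT Flt3+ GPs. It read 34.5 and 46.3 in Irf8KO Flt3- GPs, against 19.9 and 21.0 in WT Flt3- GPs. After scaling to each array, no group overlapped its neighbour. The Cd2 difference between genotypes was -3.59 (SE 0.11) in Flt3+ GPs, at least 2.75-fold lower, and 1.29 (SE 0.11) in Flt3- GPs. Cd2 was at least 4.71-fold lower in Irf8KO Flt3+ than in Irf8KO Flt3- GPs. The second Cd2 probe, printed in 10 spots, was below that limit throughout, and ran from 3.32 to 3.92 in Irf8KO Flt3+ GPs against 10.2 to 11.6 in WT Flt3+ GPs. Il2rb, the chain shared by the receptors for IL-2 and IL-15, had a similar pattern with a measurable signal on all 8 arrays. It read 23.5 and 19.1 in Irf8KO Flt3+ GPs against 44.5 and 61.6 in WT Flt3+ GPs, and 55.7 and 65.8 in Irf8KO Flt3- GPs against 20.9 and 23.8 in WT Flt3- GPs. Its levels overlapped between Irf8KO Flt3+ and WT Flt3- GPs, the lowest groups, and both others lay higher. The Il2rb difference between genotypes was -0.89 (SE 0.11) in Flt3+ GPs and 1.76 (SE 0.11) in Flt3- GPs, so that the Il2rb interaction of genotype and population was -2.65 (SE 0.15).

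Xcl1, the chemokine lymphotactin, which attracts cross-presenting dendritic cells through Xcr1, was among the faintest of the genes. It read 4.01 and 3.69 in Irf8KO Flt3+ GPs, not well above background, against 22.7 and 19.9 in WT Flt3+ GPs. It read 29.8 and 32.5 in Irf8KO Flt3- GPs, against 10.2 and 17.4 in WT Flt3- GPs, of which the second was well above background. The Xcl1 levels of the WT populations overlapped, those of Irf8KO Flt3- GPs lay above them and those of Irf8KO Flt3+ GPs below. Xcl1 differed by 1.54 (SE 0.28) between genotypes in Flt3- GPs and was at least 1.56-fold lower in Irf8KO than in WT Flt3+ GPs. It was at least 3.66-fold lower in Irf8KO Flt3+ than in Irf8KO Flt3- GPs. Xcr1, its receptor, was dim throughout, between 2.62 and 3.80. Ccl5, a chemokine (RANTES) that attracts T cells and monocytes, was well above background on all arrays. It read 369 and 427 in Irf8KO Flt3+ GPs against 684 and 941 in WT Flt3+ GPs, and 418 and 466 in Irf8KO Flt3- GPs against 249 and 271 in WT Flt3- GPs. For Ccl5 the WT Flt3+ arrays, not those of Irf8KO Flt3- GPs, held the highest level, and no group overlapped its neighbour. The Ccl5 difference between genotypes was -0.59 (SE 0.07) in Flt3+ GPs and 1.09 (SE 0.07) in Flt3- GPs. Between populations it was -0.41 (SE 0.07) for Irf8KO Flt3+ against Irf8KO Flt3- GPs and 1.26 (SE 0.07) for WT Flt3+ against WT Flt3- GPs, which are opposite directions.

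Nkg7, a membrane protein of cytotoxic granules needed for degranulation, followed the population. It was bright on every array, with 8768 and 9160 in Irf8KO Flt3+ GPs against 10152 and 13552 in WT Flt3+ GPs, and 28114 and 31995 in Irf8KO Flt3- GPs against 38753 and 41940 in WT Flt3- GPs. Its level was higher in the Flt3- arrays of either genotype than in any Flt3+ array. The difference between populations was -2.00 (SE 0.04) for Irf8KO Flt3+ against Irf8KO Flt3- GPs and -2.14 (SE 0.04) for WT Flt3+ against WT Flt3- GPs. Between genotypes Nkg7 differed by 0.03 (SE 0.04) in Flt3+ and by -0.11 (SE 0.04) in Flt3- GPs. Its second probe gave population differences of -2.29 (SE 0.05) in Irf8KO and -2.45 (SE 0.05) in WT GPs.

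Across the 5 comparisons the genes split into a set of 6 (Klra4, Klra7, Klra8, Cd2, Il2rb and Xcl1) with their highest level in Irf8KO Flt3- GPs, Ccl5 with its highest level in WT Flt3+ GPs, and Nkg7 with its highest level in WT Flt3- GPs. Of the 8 genes, 6 were called lower and 0 higher in Irf8KO than in WT Flt3+ GPs (limma adjusted p under 0.05, median -1.89), where 12.5% of 14109 genes were called lower, 16.5% higher and 29.0% in either direction (median 0.04). In Irf8KO against WT Flt3- GPs, 7 were called higher and 0 lower (median 1.51), where 16.5% of all genes were called higher, 27.2% lower and 43.6% in either direction (median -0.03). In Irf8KO Flt3+ against Irf8KO Flt3- GPs, 8 were called lower (median -3.55), where 23.6% of all genes were called lower, 22.1% higher and 45.8% in either direction (median -0.03). In WT Flt3+ against WT Flt3- GPs, 3 were called higher and 1 lower (median 0.17), where 22.6% of all genes were called higher, 39.2% lower and 61.9% in either direction (median -0.12, or -0.01 after quantile normalization). The interaction was called in 7 genes, always negative (median -3.70), where 9.45% of all genes were called negative, 21.4% positive and 30.9% in either direction (median 0.07). The genes were chosen by these contrasts, so nothing is read from these counts. The balance of directions over all genes depended on scaling. With quantile normalization the interaction was called positive in 1976 and negative in 1869 genes, against 3021 and 1333 in the main setting. WT Flt3+ against WT Flt3- GPs then had 4198 higher and 4123 lower genes, against 3194 and 5535, and Irf8KO against WT Flt3+ GPs had 1990 higher and 2174 lower genes, against 2322 and 1766. Of the 8 genes, 5 passed the filter on dim probes without being well above background on all arrays, among them Klra7, which passed through Irf8KO Flt3- GPs alone. A gene that passes through the group in which it is bright has to differ from a dim group.

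The size of the differences of the 6 low genes depended on how background was removed and on the offset then added. The median intensity of the Klra8 spot, before any background subtraction, was 40 and 44 in Irf8KO Flt3+ GPs over local backgrounds of 37 and 37, against 70.5 and 79 in WT Flt3+ GPs over 38 and 36. It was 104.5 and 117 in Irf8KO Flt3- GPs over 34 and 30, against 64 and 71 in WT Flt3- GPs over 35 and 32. With normexp background correction and an offset of 50, the Irf8KO minus WT difference in Flt3+ GPs was -0.22 for Klra8, -0.30 for Cd2, -0.15 for Klra4 and -0.16 for Il2rb. In the same setting Klra7 stood at 0.05 and Xcl1 at 0.000425, so that their direction was not kept. In Flt3+ GPs their processed signals were all below the offset of 50, which by itself shrinks differences between dim readings. The 75th percentile of processed signal also differed, at 405 and 412 on Irf8KO Flt3+ against 472 and 634 on WT Flt3+ arrays. This setting therefore cannot decide the direction for signals this dim. The interaction under normexp was -0.79 for Klra4, -0.91 for Klra7, -0.99 for Klra8, -0.87 for Cd2, -0.999 for Il2rb and -0.52 for Xcl1. In Flt3- GPs the difference under normexp kept its direction, from 0.52 for Xcl1 to 0.96 for Klra7. The contrast of Irf8KO Flt3+ against Irf8KO Flt3- GPs kept its direction as well, from -1.21 for Klra8 to -0.74 for Xcl1. Ccl5 and Nkg7, with signals far above background, moved little: Ccl5 stood at -0.57 in Flt3+ and 0.89 in Flt3- GPs.

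**Figure D3:**
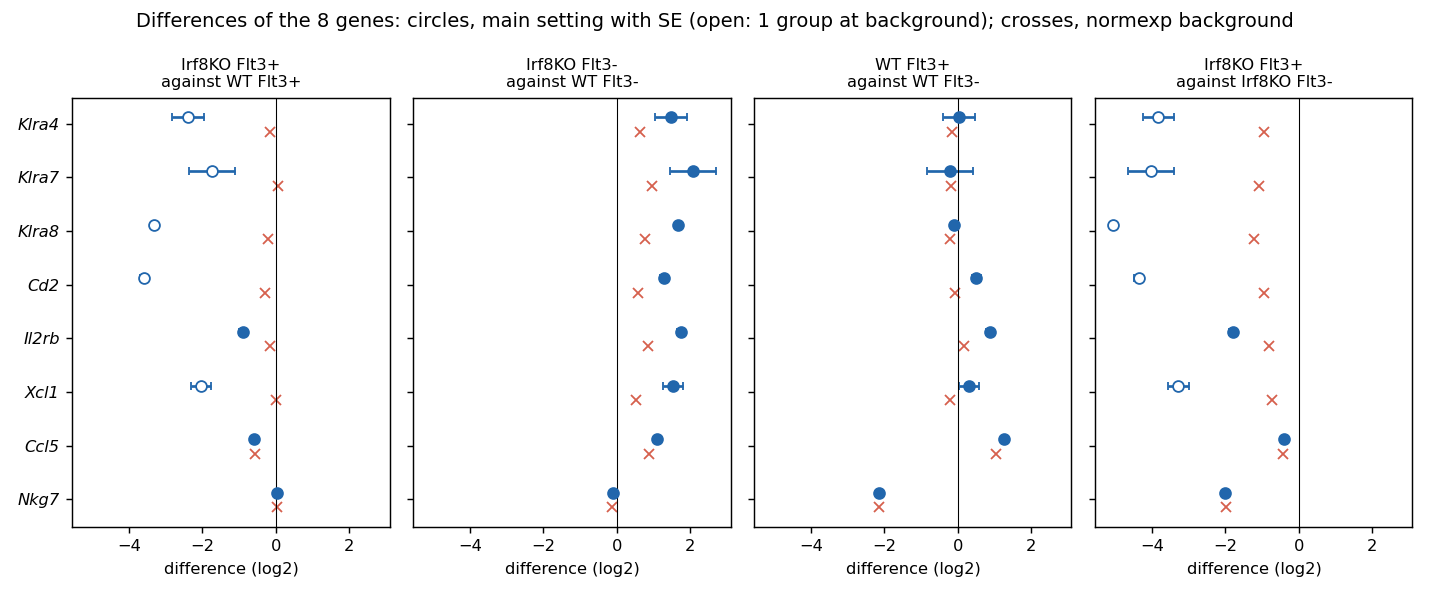
Differences (log2) of the 8 genes in 4 comparisons. Circles give the main setting with its SE, open where 1 of the groups had no array with the probe well above background, and crosses give normexp background correction. For Klra8 in Irf8KO against WT Flt3+ GPs the circle lies at -3.31 and the cross at -0.22, while for Ccl5 they lie at -0.59 and -0.57.

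The tested genes whose pattern was most like each of the 8 were ranked by the root mean square distance between centred log2 levels over the 8 arrays, among 14097 genes with a value on every array. Nearest to Il2rb were Klra9 (0.281) and Klra16 (0.314), both Ly49 genes, followed by Adgrg5 (0.345). Nearest to Ccl5 were Nectin4 (0.131), a cell adhesion gene, and Mpeg1 (0.148), which encodes the pore-forming protein perforin-2 of phagocytes. Nearest to Nkg7 was Arsb (0.0966), a lysosomal sulphatase. The other 5 low genes had no neighbour this close: the nearest to Klra4 was Ankrd22 (0.666), to Klra7 Txk (0.752), a Tec family kinase of T and NK cells, to Klra8 and Cd2 Sox6 (0.814 and 0.715), and to Xcl1 Arhgef28 (0.582). Among the 8 genes themselves, Klra8 and Cd2 were nearest to each other (0.382), followed by Klra4 and Xcl1 (0.477). The distances describe these arrays, which share 1 slide.

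The wider NK programme was examined in 8 lists with 122 other genes, of which 111 had a named probe and 80 were tested. In Irf8KO against WT Flt3+ GPs, 16 of the 80 genes rose and 29 fell (limma, Benjamini-Hochberg adjusted p under 0.05), with a median of -0.18, so that 56.2% were called, against 29.0% of all genes. In Irf8KO against WT Flt3- GPs, 20 rose and 15 were called lower (median 0.05), a share of 43.8% against 43.6% of all genes. In Irf8KO Flt3+ against Irf8KO Flt3- GPs, 30 rose and 23 were called lower (median 0.08), a share of 66.2% against 45.8%. In WT Flt3+ against WT Flt3- GPs, 40 rose and 19 fell (median 0.20), a share of 73.8% against 61.9%. The interaction was positive in 9 and negative in 24 (median -0.12), a share of 41.2% against 30.9%. A few of these calls compare groups that were both at background, namely Il7r and Itga2 in Irf8KO against WT Flt3- GPs and Tbx21 in Irf8KO Flt3+ against Irf8KO Flt3- GPs. Nothing particular to the lists is read from these shares, which were not tested against those of all genes.

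Among chemokines and their receptors, the CC chemokines Ccl3 and Ccl4 both fell in Irf8KO Flt3+ GPs and rose in Irf8KO Flt3- GPs. Ccl3 read 1156 and 1106 in Irf8KO Flt3+ GPs against 2032 and 2689 in WT Flt3+ GPs, and 239 and 269 in Irf8KO Flt3- GPs against 99.9 and 96.0 in WT Flt3- GPs. The Ccl3 difference was -0.62 (SE 0.06, limma adjusted p = 0.0016) in Flt3+ and 1.69 (SE 0.06, limma adjusted p = 8.05e-05) in Flt3- GPs, with an interaction of -2.32 (limma adjusted p = 0.000281). Ccl4 differed by -0.71 (SE 0.05, limma adjusted p = 0.000309) in Flt3+ and by 1.21 (SE 0.05, limma adjusted p = 8.43e-05) in Flt3- GPs, with an interaction of -1.92 (limma adjusted p = 0.000188). Unlike Ccl5, both were also higher in Irf8KO Flt3+ than in Irf8KO Flt3- GPs, by 1.90 for Ccl3 and 1.59 for Ccl4. Cxcr3, a chemokine receptor of activated T and NK cells, had the same genotype pattern at -0.76 (SE 0.09, limma adjusted p = 0.00271) in Flt3+ and 0.88 (SE 0.09, limma adjusted p = 0.00114) in Flt3- GPs, and at -0.27 and 0.36 with normexp. Cx3cr1, the fractalkine receptor, moved in the opposite way, at 1.55 (SE 0.08, limma adjusted p = 0.000152) in Flt3+ and -0.60 (SE 0.08, limma adjusted p = 0.00287) in Flt3- GPs. Ccl9 rose in both, by 0.80 in Flt3+ and 0.78 in Flt3- GPs. Of the 8 tested genes of this list, 2 rose and 4 fell in Flt3+ GPs, where 29.0% of all genes were called, and 4 rose and 1 fell in Flt3- GPs, where 43.6% were.

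The combination of a fall in Irf8KO Flt3+ GPs and a rise in Irf8KO Flt3- GPs, each called, occurred in 6 of the 8 genes, which were chosen with it in view, and in 1.50% of all genes (211 of 14109). Among the 80 other NK-related genes it occurred in 5, namely Ccl3, Ccl4, Cxcr3, Il18r1 and Zap70. Zap70, a kinase of T and NK cell receptors, stood at -0.63 (SE 0.12, limma adjusted p = 0.0125) in Flt3+ and 0.73 (SE 0.12, limma adjusted p = 0.00468) in Flt3- GPs, at -0.41 and 0.44 with normexp, and its Flt3+ call was lost when the second WT Flt3+ array or either Irf8KO Flt3+ array was left out. Il18r1, a chain of the IL-18 receptor, stood at -0.45 (SE 0.06, limma adjusted p = 0.00523) in Flt3+ and 0.21 (SE 0.06, limma adjusted p = 0.0446) in Flt3- GPs, and its Flt3- call was lost in 8 other settings. The reverse pair of calls was made for 2 of the 80, Cx3cr1 and Il7r, and for 408 of 14109 genes. For Il7r the Flt3- signals were 2.50 and 2.41 in Irf8KO against 6.24 and 10.3 in WT GPs, none well above background, and the sign there turned with normexp (0.055), so no direction is read for it.

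**Figure D4:**
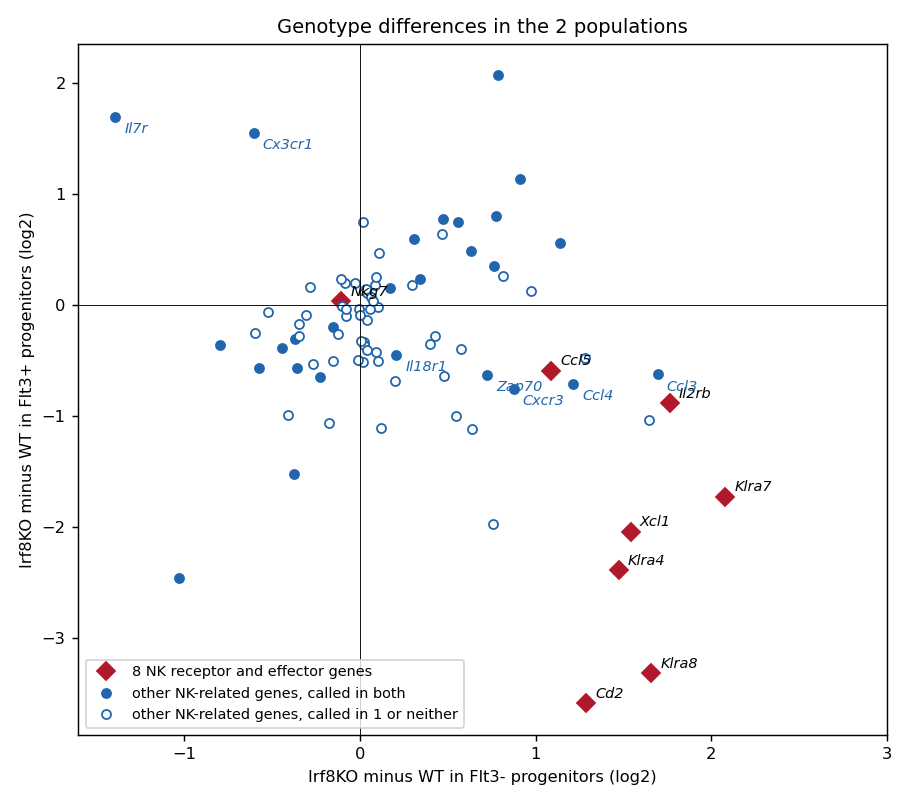
Genotype difference (Irf8KO minus WT, log2) in Flt3- GPs (horizontal) and in Flt3+ GPs (vertical). Diamonds are the 8 NK receptor and effector genes, filled circles are other NK-related genes called in both populations and open circles are those called in 1 or neither. Of the 8 genes, 7 lie at the lower right and Nkg7 near the origin, while Cx3cr1 lies at the upper left, as does Il7r, whose horizontal value compares background readings.

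NK receptors outside the Ly49 family followed no common direction between genotypes. Of 11 tested, 1 rose and 4 fell in Irf8KO against WT Flt3+ GPs (45.5% called, against 29.0% of all genes). Between Irf8KO and WT Flt3- GPs, 2 were called higher and 2 lower (36.4% against 43.6%), and in WT Flt3+ against WT Flt3- GPs 8 rose (72.7% against 61.9%). Klrd1, the CD94 chain that pairs with NKG2 receptors, rose by 0.56 (SE 0.09, limma adjusted p = 0.00785) in Irf8KO Flt3+ and by 1.14 (SE 0.09, limma adjusted p = 0.000533) in Irf8KO Flt3- GPs, the second value being 0.46 with normexp. Klrd1 was also 3.48 higher (SE 0.09, limma adjusted p = 2.94e-06) in WT Flt3+ than in WT Flt3- GPs, a difference of 1.66 with normexp. Klrb1f, an NKR-P1 family receptor, read 259 and 260 in Irf8KO Flt3+ GPs against 625 and 845 in WT Flt3+ GPs, a fall by 1.06 (SE 0.08, limma adjusted p = 0.000477). Its difference in Flt3- GPs was -0.17 (SE 0.08, limma adjusted p = 0.128).

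Adaptors of NK receptors did not share a direction. Tyrobp (DAP12, the adaptor of activating Ly49 receptors), Fcer1g, an adaptor of Fc and NK receptors, and Sh2d1b1 (EAT-2, an adaptor of SLAM receptors) rose in Irf8KO GPs of both populations. Tyrobp read 30252 and 31517 in Irf8KO Flt3+ GPs against 15896 and 22297 in WT Flt3+ GPs, a rise of 1.14 (SE 0.06, limma adjusted p = 0.000113), and rose by 0.91 (SE 0.06, limma adjusted p = 0.000286) in Flt3- GPs. Fcer1g rose by 0.77 (SE 0.05, limma adjusted p = 0.00022) in Flt3+ and by 0.48 (SE 0.05, limma adjusted p = 0.000981) in Flt3- GPs. Sh2d1b1 rose by 2.07 (SE 0.13, limma adjusted p = 0.000263) in Flt3+ and by 0.79 (SE 0.13, limma adjusted p = 0.00542) in Flt3- GPs. Hcst (DAP10, the adaptor of NKG2D) fell by 0.32 (SE 0.04, limma adjusted p = 0.004) in Irf8KO Flt3+ GPs and differed by 0.01 (limma adjusted p = 0.918) in Flt3- GPs. Cd247 (CD3 zeta) differed by -0.40 (SE 0.64, limma adjusted p = 0.675) in Flt3+ and by 0.58 (SE 0.64, limma adjusted p = 0.507) in Flt3- GPs. Lat, a scaffold of T and NK cell signalling, fell by 0.57 in each population (limma adjusted p = 0.0025 in Flt3+ and 0.00161 in Flt3- GPs). Of the 13 tested signalling genes, 5 rose and 3 fell in Irf8KO Flt3+ GPs (61.5% called, against 29.0% of all genes), and 6 rose and 1 fell in Irf8KO Flt3- GPs (53.8% against 43.6%). Around Cd2, the kinase Lck was higher in Flt3+ GPs, by 2.81 in Irf8KO and 2.93 in WT cells (limma adjusted p = 2.57e-06 and 1.66e-06), and its genotype difference was -0.01 in Flt3+ and 0.10 in Flt3- GPs. Cd48, the Cd2 ligand, fell by 0.39 in Irf8KO Flt3+ and by 0.44 in Irf8KO Flt3- GPs (limma adjusted p = 0.00689 and 0.00272).

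Among the 15 tested cytotoxic granule and death ligand genes, 2 rose and 6 fell in Irf8KO against WT Flt3+ GPs (53.3% called, against 29.0% of all genes). Among the same genes, 1 rose and 2 fell in Irf8KO against WT Flt3- GPs (20.0% against 43.6%), and in Irf8KO Flt3+ against Irf8KO Flt3- GPs 3 rose and 9 fell (80.0% against 45.8%). Gzma, granzyme A, read 47.3 and 57.9 in Irf8KO Flt3+ GPs against 181 and 224 in WT Flt3+ GPs, a fall by 1.52 (SE 0.11, limma adjusted p = 0.000464) that was 0.83 in size with normexp. Cst7, cystatin F, an inhibitor of granule cathepsins, rose by 0.75 (SE 0.04, limma adjusted p = 0.000198) in Irf8KO Flt3+ GPs. Like Nkg7, Cst7 was lower in Flt3+ than in Flt3- GPs, at -1.05 (SE 0.04, limma adjusted p = 1.73e-05) in Irf8KO and -1.77 (SE 0.04, limma adjusted p = 2.52e-06) in WT cells. Srgn, the granule proteoglycan serglycin, stood at -1.45 in Irf8KO and -1.57 in WT cells in the same comparisons (limma adjusted p = 6.84e-06 and 4.44e-06). Tnfsf10 (TRAIL) fell by 0.49 (SE 0.05, limma adjusted p = 0.00151) in Irf8KO Flt3+ GPs and differed by -0.01 (limma adjusted p = 0.915) in Flt3- GPs.

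Of the 13 tested genes in the list of cytokine receptors and kinases (IL-2 and IL-15 receptor chains, other lymphoid cytokine receptors, Jak and Stat5 genes), 2 rose and 6 fell in Irf8KO against WT Flt3+ GPs (61.5% called, against 29.0% of all genes). Between Irf8KO and WT Flt3- GPs, 1 was called higher and 5 lower (46.2% called, against 43.6%), Il7r among the 5. Il7r, the IL-7 receptor chain of lymphoid precursors, read 1336 and 1472 in Irf8KO Flt3+ GPs against 486 and 694 in WT Flt3+ GPs, a rise of 1.695 (SE 0.20, limma adjusted p = 0.00284). In Flt3- GPs no array had Il7r well above background, so its call there compares background readings. Il12rb1, a chain of the IL-12 receptor, fell by 0.57 (SE 0.05, limma adjusted p = 0.000996) in Irf8KO Flt3+ and by 0.35 (SE 0.05, limma adjusted p = 0.00337) in Irf8KO Flt3- GPs. Of the 12 tested transcription factors of NK and innate lymphoid cells, 3 rose and 4 fell in Irf8KO Flt3+ GPs (58.3% called, against 29.0% of all genes), and 3 rose and 2 fell in Irf8KO Flt3- GPs (41.7% against 43.6%). The 4 that fell in Flt3+ GPs were Tbx21, Rora, Gata3 and Zbtb16. Tbx21 (T-bet) differed by -1.97 there (SE 0.41, limma adjusted p = 0.0185), with neither Irf8KO Flt3+ array well above background. Gata3 read 109 and 102 in Irf8KO against 249 and 316 in WT Flt3+ GPs. Rora read 33.5 and 52.0 against 96.0 and 151. Id2 rose by 0.49 (SE 0.07, limma adjusted p = 0.00477) in Irf8KO Flt3+ and by 0.63 (SE 0.07, limma adjusted p = 0.00125) in Irf8KO Flt3- GPs. Nfil3, which is needed for NK cell development, rose by 0.35 (SE 0.05, limma adjusted p = 0.00648) in Flt3+ and by 0.77 (SE 0.05, limma adjusted p = 0.000375) in Flt3- GPs. Zbtb16 (PLZF) was lower in Flt3+ than in Flt3- GPs, at -3.48 in Irf8KO and -3.06 in WT cells (limma adjusted p = 8.17e-07 and 7.04e-07), and fell by 0.65 in Irf8KO Flt3+ GPs (limma adjusted p = 0.000403).

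Some markers of NK and T cells, which use several of these genes, were measurable in every group. Klrk1 (NKG2D) was dim throughout, between 2.48 and 14.6, and Ncr1 (NKp46) was on 1 array, the first of Irf8KO Flt3- GPs. Of 10 NK cell markers, 4 were well above background on both arrays in Irf8KO Flt3+ GPs, against 6 in WT Flt3+ GPs, and 5 in Irf8KO Flt3- GPs, against 5 in WT Flt3- GPs. Their summed linear level, in units of the 75th percentile of the array, ran from 2.30 to 3.04 in Irf8KO Flt3+ against 2.78 to 2.93 in WT Flt3+ GPs, and from 2.68 to 2.71 in Irf8KO Flt3- against 2.501 to 2.55 in WT Flt3- GPs. Prf1, the brightest of the 10, made up most of each sum, so the sums say little about the dimmer NK cell markers. Of the 12 T cell markers, 6 were well above background in Irf8KO Flt3+ and 6 in WT Flt3+ GPs, and 7 in Irf8KO Flt3- and 7 in WT Flt3- GPs, with Cd8a and Cd8b1 on no array. Cd3d, a chain of the T cell receptor complex, was well above background in Irf8KO Flt3- GPs only. It read 29.8 and 27.9 there, against 13.1 and 9.28 in WT Flt3- GPs. Most T cell markers called in that comparison went the other way: of 8 tested, 2 were called higher and 4 lower. The 4 were Thy1 (-1.33), Tcf7 (-1.08), Cd6 (-0.66) and Cd5 (-0.31). In Irf8KO against WT Flt3+ GPs, 1 T cell marker was called higher and 2 lower. Of all genes, 16.5% were called higher and 12.5% lower in Irf8KO against WT Flt3+ GPs. In Irf8KO against WT Flt3- GPs, 16.5% of all genes were called higher and 27.2% lower. No marker count in this paragraph was tested against these shares. The summed T cell level ran from 11.7 to 11.7 in Irf8KO Flt3+ against 11.6 to 13.0 in WT Flt3+ GPs, and from 10.9 to 11.7 in Irf8KO Flt3- against 11.3 to 11.5 in WT Flt3- GPs. Cd4 and Cd3e made up most of it, so it says little about the dimmer T cell markers. The summed levels of basophil and mast cell markers and of eosinophil markers differed more between genotypes than those of NK and T cell markers. Of 10 basophil and mast cell markers, 7 fell in Irf8KO Flt3+ and 9 in Irf8KO Flt3- GPs, and their summed level ran from 5.69 to 6.01 in Irf8KO Flt3+ against 13.4 to 14.0 in WT Flt3+ GPs, and from 63.4 to 63.6 in Irf8KO Flt3- against 132.1 to 132.2 in WT Flt3- GPs. Of 7 eosinophil markers, 4 fell and 1 rose in Irf8KO Flt3+ and 5 fell in Irf8KO Flt3- GPs, with sums from 2.39 to 2.45 in Irf8KO Flt3+ against 5.66 to 5.79 in WT Flt3+ GPs, and from 11.8 to 11.9 in Irf8KO Flt3- against 23.4 to 23.7 in WT Flt3- GPs. Of the 8 tested B cell markers, 5 rose and 1 fell in Irf8KO Flt3+ GPs, where the sum of all 9 ran from 21.6 to 22.3 against 14.1 to 14.7 in WT Flt3+ GPs, and 2 rose and 2 fell in Irf8KO Flt3- GPs, where it ran from 13.7 to 13.8 against 12.8 to 13.3 in WT Flt3- GPs. Of 10 granulocyte progenitor markers, 8 rose and 1 fell in Irf8KO Flt3+ GPs, and 5 rose and 2 fell in Irf8KO Flt3- GPs. For 8 plasmacytoid dendritic cell markers, 3 were called higher and 2 lower in Irf8KO Flt3+ GPs, and 2 higher and 1 lower in Flt3-. For 5 tested conventional dendritic cell markers, 1 was called higher and 2 lower in Irf8KO Flt3+ GPs. In Irf8KO Flt3- GPs, 2 of these were called higher and 0 lower. The part of other cell types in the levels of the 8 genes was not tested.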

How the data were processed

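Gene expression was measured on 8 one-colour (Cy3) arrays. Per the file headers, spot intensities were extracted by Agilent Feature Extraction 10.7.3.1 (protocol GE1_107_Sep09), and the deposited intensity values are linear, background-subtracted and not scaled between arrays. Flags (scores of 0 or 1) for background, saturation and outliers were used as deposited. The deposited series table holds linear uncentred intensity. Its median ratio to the scanner values was 0.672 to 1.33 per array. Single probes departed from that ratio, by at most 0.73 to 4.37 log2 depending on the array. Its columns had medians of 29.9, 28.7, 26.9, 28.0, 28.7, 27.1, 27.5 and 27.6. Its making is not stated in the labels, and it was used only among the alternatives.

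There were 59305 non-control spots for 55681 probes on an array; 54.9 to 60.1% of spots were well above background, none was saturated, and 93 to 178 outliers were dropped. The number of arrays limits the precision. Replicate arrays correlated at 0.9958 to 0.9975 across genes.

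Levels are log2 intensity minus that array's log2 75th percentile over probes. Kept probes were well above background in both replicates of 1 or more groups, and the brightest kept probe stood for a gene. Accessions were named through RefSeq (GRCm38.p6): 26762 probes named, 28919 not. The model had 1 mean per group over all 8 arrays, in limma 3.58.1 (R 4.3.3; 4 residual and 1.76 prior degrees of freedom), with Benjamini-Hochberg adjustment over 14109 genes, tested on simulated data. Genes, lists and tests were chosen with earlier results of these data known. From each list and comparison, the called genes with the 4 largest differences could be named, with their values in the other comparisons, and partners such as Cd48, Tyrobp and Xcr1 whatever their value; 1 gene of the lists is counted but not reported here by value. Klra16 and Cd3d were chosen after their values were seen. Genes most like each of the 8 were the 3 at the smallest distance.

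Titles number the arrays by independent experiment. The correlation of replicate deviations between groups ran from -0.028 to 0.123, and a fit with the experiment as a replicate block was an alternative, with normexp background (offset 50), quantile normalization, the series table, other filters, all kept probes, separate groups and leaving out each array.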

Additional observations from a re-analysis of the deposited data

Results flagged for a closer look

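The effect of genotype differed between Flt3+ and Flt3- GPs, by the interaction term of the limma fit (adjusted p under 0.05), for the genes below. Values are the log2 Irf8KO minus WT difference in Flt3+ GPs minus that in Flt3- GPs. Among the genes chosen for their pattern, where the term is a description, it was Klra4 (-3.86), Klra7 (-3.81), Klra8 (-4.97), Cd2 (-4.87), Il2rb (-2.65), Xcl1 (-3.58) and Ccl5 (-1.68). With normexp background correction the first 6 stood at -0.79, -0.91, -0.99, -0.87, -0.999 and -0.52, and all of them but Il2rb rest on an Irf8KO Flt3+ group not well above background. The negative values among other NK-related genes and the sort marker Flt3 were those of Tbx21 (-2.73), Klrb1a (-2.68), Ccl3 (-2.32), Ccl4 (-1.92), Klra9 (-1.76), Cxcr3 (-1.63), Cd7 (-1.55), Itga2 (-1.43), Zap70 (-1.35), Rora (-1.23) and Gzma (-1.14), and, nearer to 0, Tox (-1.12), Flt3 (-0.94), Klrb1f (-0.89), Il18r1 (-0.66), Klrd1 (-0.58), Serpinb9 (-0.53), Il15 (-0.51), Tnfsf10 (-0.48), Zbtb16 (-0.42), Nfil3 (-0.42), Jak3 (-0.35) and Hcst (-0.33). Positive values were those of Il7r (3.09), Cx3cr1 (2.15), Sh2d1b1 (1.28), Cst7 (0.73), Ctsc (0.45), Fyn (0.43), Il15ra (0.35), Ptpn11 (0.34) and Fcer1g (0.29). The list of other genes is not complete, since it holds only named genes. Among other NK-related genes 33 were called, 9 positive and 24 negative. Of the 32 other genes listed, Flt3 among them, 16 kept the call under every alternative run. The call was lost under at least 1 alternative for Ctsc, Fcer1g, Fyn, Hcst, Il15, Il15ra, Itga2, Jak3, Klra9, Klrb1a, Klrd1, Ptpn11, Rora, Tbx21, Tox and Zbtb16. Normexp ended it for 7 of them (Fcer1g, Fyn, Itga2, Klra9, Klrd1, Tbx21 and Zbtb16) and turned the sign of Klrd1 (0.026), and quantile normalization ended it for 4 (Fcer1g, Il15ra, Itga2 and Ptpn11). Il7r was at background in Flt3- GPs of both genotypes. Tbx21 and Itga2 were well above background in WT Flt3+ GPs only, so their interactions rest largely on background readings. Of all genes, 30.9% had a called interaction. The causes were not tested.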

How the results depend on the processing

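In Irf8KO against WT Flt3+ GPs, 4088 genes were called, 2679 without the filter on dim probes, 2665 with only the compared groups fitted, and 1996 to 3475 when 1 array was left out (2183 and 1996 without the first and second Irf8KO Flt3+ array). In Irf8KO against WT Flt3- GPs, 6158 were called, and 4054 to 4789 with 1 array left out (4054 without the second WT Flt3- array). The interaction was called in 4354 genes, in 2725 without the filter, and in 2515 to 4415 with 1 array left out, the low values without either WT Flt3- array (2586, 2553) or Irf8KO Flt3+ array (2900, 2515). Among other NK-related genes it was called in 33, and in 20 to 31 with 1 array left out (20 without the second WT Flt3- array). With fewer arrays fewer degrees of freedom remain. Other counts stayed within 1.5 times. Among named differences called in the main setting, normexp turned the sign of Xcl1 (0.000425) in Irf8KO against WT Flt3+ GPs. It also turned Il7r (0.055) and Itga2 (0.10) in Irf8KO against WT Flt3- GPs, and the Klrd1 interaction (0.026). In WT Flt3+ against WT Flt3- GPs it turned Cd2 (-0.071) and Klra9 (-0.084). Differences not called in the main setting turned too. These were Klra7 (0.050) in Irf8KO against WT Flt3+ GPs, and Klra4 (-0.16) and Xcl1 (-0.22) in WT Flt3+ against WT Flt3- GPs. Quantile normalization turned Ptpn11 (0.020) in WT Flt3+ against WT Flt3- GPs. With 1 array left out, Cd7 ran from -0.47 (without the second Irf8KO Flt3+ array) to 0.23 (without the first) in Irf8KO Flt3+ against Irf8KO Flt3- GPs, and the Ctsw interaction from -0.56 (without the first WT Flt3- array) to 0.70 (without the second). The cause was not tested. Requiring a probe to be well above background on all 8 arrays left Il2rb, Ccl5 and Nkg7 of the 8 genes. With the experiment number as a replicate block, 4008, 6202, 8783, 6552 and 4407 genes were called in the comparisons Irf8KO against WT Flt3+, Irf8KO against WT Flt3-, WT Flt3+ against WT Flt3-, Irf8KO Flt3+ against Irf8KO Flt3- and the interaction, and no count moved by over 1.5 times. Among values of the other named genes under the alternatives, 3143 kept their call and direction, 225 lost and 60 gained a call. Signal near background limits Klra4, Klra7, Klra8, Cd2 and Xcl1.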
